A study of Mus musculus with 8 samples.

Results

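The genes described are the 6 mouse peroxiredoxins, Prdx1 to Prdx6, and 4 genes that serve them: Txn1 (thioredoxin), Txnrd1 (thioredoxin reductase), Txnip (the thioredoxin-interacting protein) and Srxn1 (sulfiredoxin). They were chosen by symbol, as the 10 rows with these names among the 25124 genes of the deposited expression table, and all 10 were found. Peroxiredoxins are abundant thiol peroxidases: a cysteine of the enzyme takes up the oxygen of hydrogen peroxide and is then reduced again by thioredoxin, which is in turn recharged by thioredoxin reductase with electrons from NADPH. Sulfiredoxin rescues peroxiredoxins whose cysteine has been oxidized too far, and Txnip binds the active site of thioredoxin and holds it out of the cycle. In macrophages the system buffers the peroxide made by the NADPH oxidase. Osteoclasts, the bone-resorbing cells that arise from macrophage precursors, use peroxide as a signal while they form. Peroxiredoxin 1 is also released from cells, and outside the cell it is known as a ligand of Toll-like receptor 4.

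The study asked how extracellular PRDX1 acts on the formation of osteoclasts. RNA was sequenced from mouse osteoclast precursor (OCP) cells, the adherent bone marrow macrophages, in 4 groups of 2 libraries named no PRDX1 + no RANKL, PRDX1 + no RANKL, no PRDX1 + RANKL and PRDX1 + RANKL. These are called here control, PRDX1, RANKL and PRDX1 + RANKL libraries. RANKL is the cytokine that drives precursors into osteoclasts. Every group received 30 ng/mL M-CSF, the growth factor of macrophages. The groups with RANKL received 100 ng/mL of it, the groups with PRDX1 received 200 nM of the protein, and RNA was taken after 48 h. The PRDX1 was a His-tagged recombinant protein made in Escherichia coli and passed over an endotoxin removal resin, and no label names a vehicle or a heat-inactivated protein for any of the 4 groups, although the study used the latter in its osteoclast assay, so the protein and anything that came with it cannot be told apart. The labels give bone marrow of C57BL/6 mice, 6 to 8 weeks old, whereas the culture methods of the study name male ICR mice. No source says whether the 2 libraries of a group came from separate cultures or animals, so p-values measure the spread between these libraries, which may be technical.

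Values are FPKM, that is reads scaled to the length of the transcript and to the total of the library, and they count messenger RNA of the cells, not the added protein. Library totals were 27284662 to 46171823 reads. All 10 genes were well covered. Among them the lowest count in any library was 2293 reads, for Prdx3, and the highest 88038 reads, for Prdx1. All 10 passed the filter of a mean of 0.5 FPKM, which 11700 genes passed. In each group the replicates differed beyond the counting error of their reads (chi-square per degree of freedom 4.71 to 9.58), so none were merged. In bulk RNA, fewer cells of a type and less RNA per cell cannot be told apart, and this holds for all levels below. The cells carried the 8 macrophage markers looked for, among them Lyz2 and Csf1r, in all libraries.

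Prdx1 was by far the most abundant of the 10 genes. In control libraries it stood at rank 17 of all genes in the table in both replicates. In order of mean FPKM per length, the control libraries held Prdx1 (1258), Txn1 (335), Txnip (150), Prdx5 (133), Prdx4 (132), Txnrd1 (130), Prdx2 (95.9), Srxn1 (72.0), Prdx3 (52.6) and Prdx6 (33.6). Of the neighbours in this order, Prdx5 and Prdx4 overlapped in range, as did Prdx4 and Txnrd1, and the others did not. Prdx1 and Txn1 remained first and second, and Prdx6 last, in each of the 4 groups. The places between them changed: Prdx2 was seventh in control libraries but in RANKL libraries came next after Txn1, where only the ranges of Prdx5 and Prdx3 overlapped, and Prdx5 held that place in both groups with PRDX1. In PRDX1 libraries Prdx4 and Txnip were the only neighbours whose ranges overlapped, and in PRDX1 + RANKL libraries no neighbours overlapped.

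**Figure D1:**
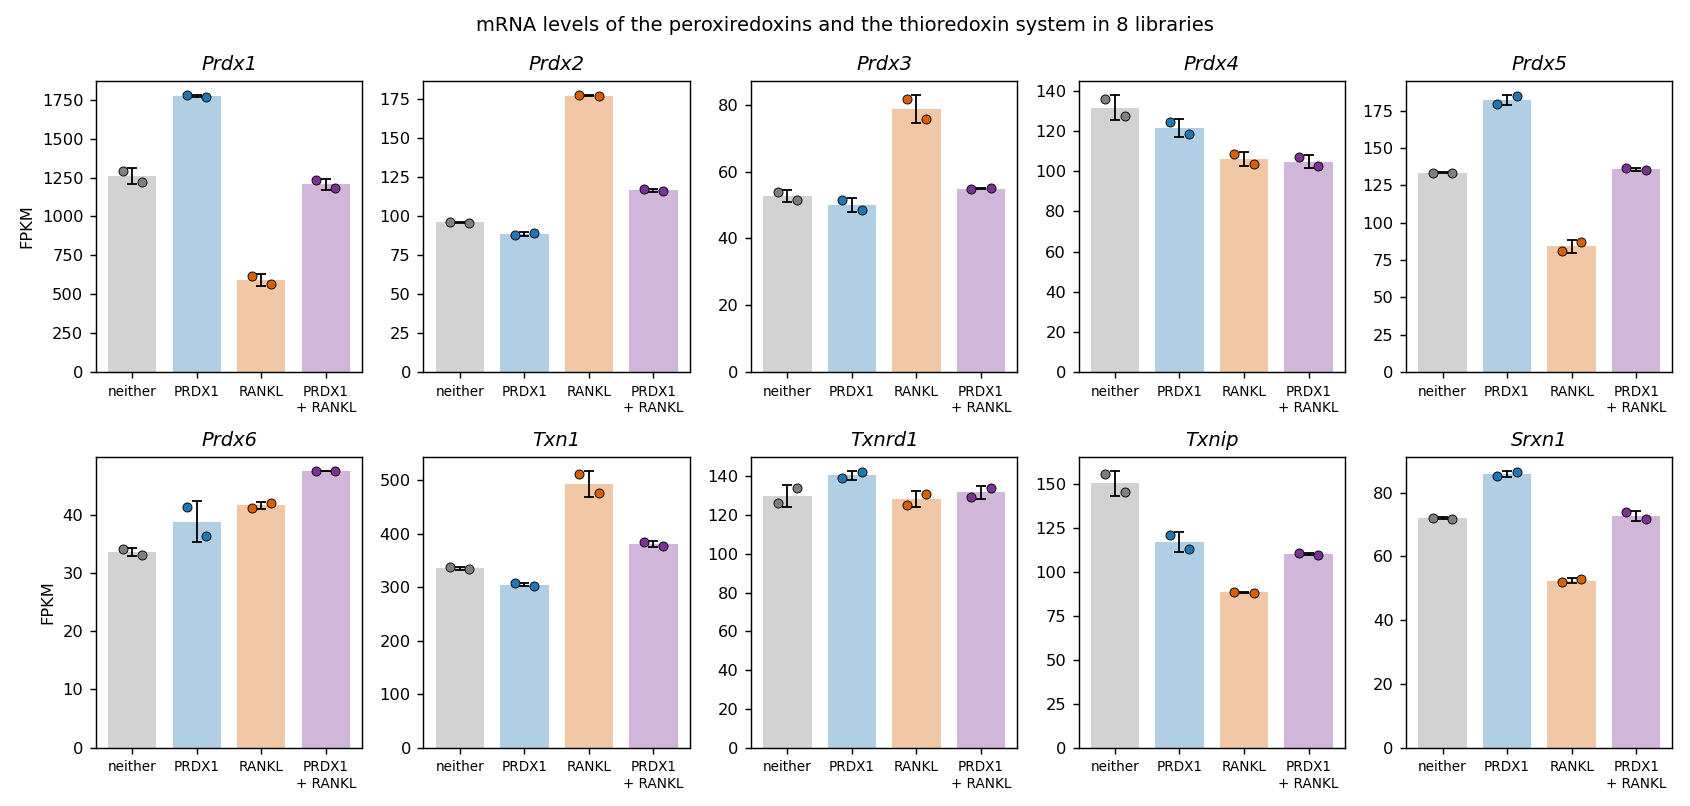
FPKM (y axes, each from 0) of the 10 genes in the 4 groups (x axis; neither is no PRDX1 + no RANKL). Bars are means, error bars the SD of 2 libraries and points the libraries: Prdx1, Prdx5 and Srxn1 were lowest with RANKL alone, where Prdx2, Prdx3 and Txn1 were highest, and Txnrd1 kept between 125 and 142 FPKM throughout.

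RANKL alone moved the system in opposite directions. Prdx2, Prdx3, Prdx6 and Txn1 rose, and Prdx1, Prdx4, Prdx5, Txnip and Srxn1 fell. Txnrd1 did not pass the test. These counts of 4 higher and 5 lower among 10 stand beside 37.0% of all genes tested that rose and 22.9% that fell. Among the 10, 4 genes (Prdx1, Prdx2, Prdx5 and Txnip) were also changed at least 1.5-fold, against 21.8% of all genes. The median log2 fold change of the 10 was -0.16, and that of all genes tested was 0.10. The test was limma on log2(FPKM + 1), with Benjamini-Hochberg adjustment over all 11700 genes and an adjusted p under 0.05 to pass. Fold changes are on that scale. An exact permutation test of a single value of 2 libraries against 2 cannot go below p = 0.333 and was not used. The RANKL libraries also differed in cell state: all 8 macrophage markers fell (median log2 fold change -0.83; 7 fell and 1 rose under quantile normalization) and all 9 osteoclast markers tested rose (median 4.47).

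PRDX1 added to RANKL moved most of the same genes the other way. Prdx1, Prdx5, Srxn1, Txnip and Prdx6 rose, while Prdx2, Prdx3 and Txn1 fell. Prdx4 and Txnrd1 did not pass. That makes 5 of 10 higher, beside 16.9% of all genes, and 3 of 10 lower, beside 25.6%. Prdx1, Prdx5 and Prdx2 were changed at least 1.5-fold, beside 10.2% of all genes. The median log2 fold change of the 10 was 0.11, and that of all genes tested was -0.06. This comparison shares its RANKL libraries with the previous one, so a value that is high in them raises the one and lowers the other. In the same libraries all 8 macrophage markers rose with PRDX1 (median 0.63; 7 rose and 1 fell under quantile normalization) and all 9 osteoclast markers tested fell (median -2.90). Whether the changes of the peroxiredoxin genes follow from the makeup of the cultures was not tested.

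PRDX1 without RANKL moved 6 of the genes. Prdx1, Prdx5, Srxn1 and Prdx6 rose and Txnip and Txn1 fell, which is 4 of 10 higher beside 12.2% of all genes and 2 of 10 lower beside 17.6%. None of the 10 reached 1.5-fold at any p, beside 5.79% of all genes. The median of the 10 was 0.02, and that of all genes was -0.04. Of the macrophage markers 4 of 8 rose here and 1 fell, and of the osteoclast markers tested 4 of 9 rose, among them Acp5 (2.22-fold) and Atp6v0d2 (2.97-fold), and 2 fell, Itgb3 (1.73-fold) and Nfatc1 (1.30-fold). All 4 neutrophil markers tested rose (median 1.34, or 2.17 with voom on recovered reads), as did 3 of 4 stromal markers (median 0.53, or 0.87 with voom). These medians of low genes depend on the scale used. Their part in the changes of the 10 genes was not tested.

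RANKL in the presence of PRDX1 raised Prdx2, Prdx6 and Txn1, 3 of 10 beside 26.2% of all genes, and lowered Prdx1, Prdx4, Prdx5 and Srxn1, 4 of 10 beside 14.4%. None reached 1.5-fold at any p, beside 8.50% of all genes. The median of the 10 was -0.09, and that of all genes was 0.07. With both agents against neither, Prdx2, Prdx6 and Txn1 were higher, 3 of 10 beside 24.7% of all genes, and Prdx4 and Txnip were lower, 2 of 10 beside 19.5%. Again none of the 10 reached 1.5-fold at any p, beside 12.8%. The difference between the PRDX1 effects with and without RANKL, the interaction term of the same fit, passed for 7 of 10 genes beside 23.1% of all genes, and for Txnip alone was it at least 1.5-fold, beside 8.85%.

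**Figure D2:**
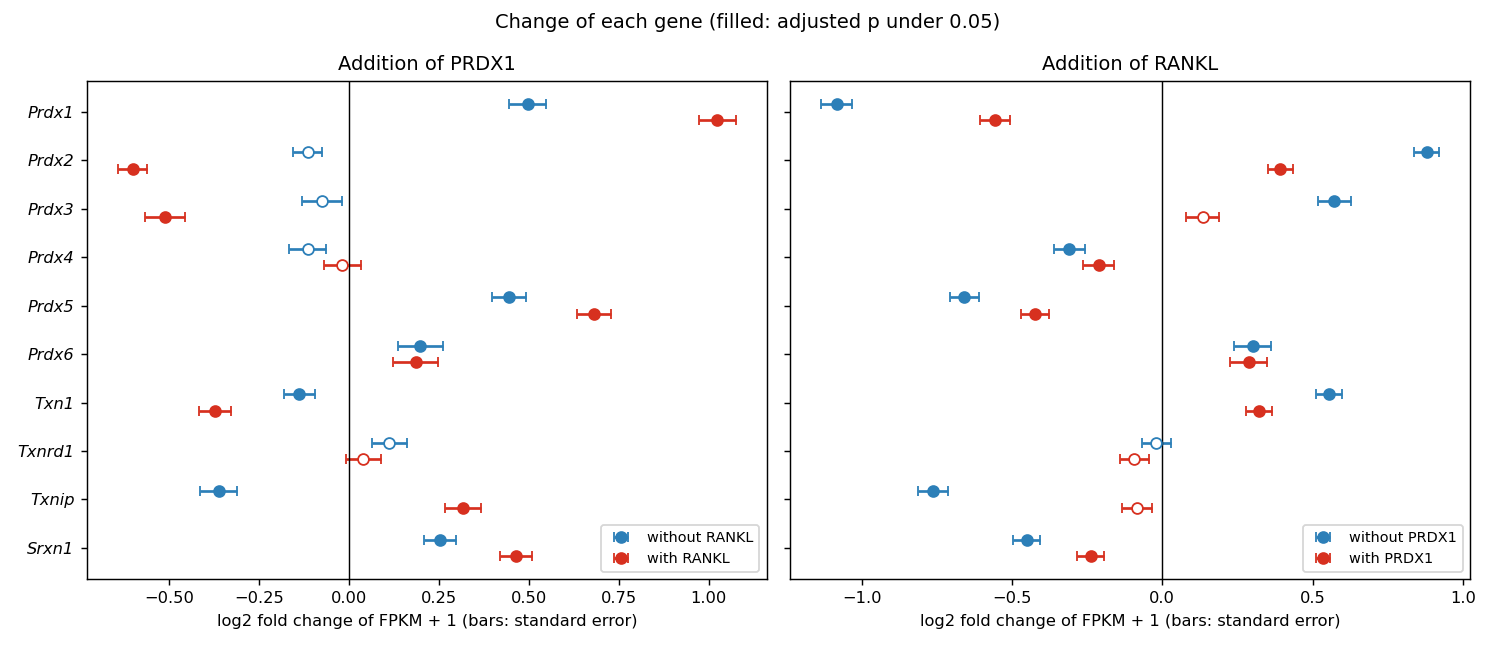
Log2 fold change of FPKM + 1 (x axes, bars are standard errors) of each gene (y axis) on addition of PRDX1, left, and of RANKL, right, with the other agent absent (blue) or present (red). Filled points have an adjusted p under 0.05: Prdx2 and Prdx3 have filled points on the left under RANKL and open ones without it, and Txnip has its points on opposite sides of 0 on the left.

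Prdx1, a cytosolic peroxiredoxin with a resolving cysteine, is encoded by NM_011034 at chr4:116685599-116700000 (mm10, + strand). It had 1294 and 1221 FPKM in control libraries, 1779 and 1770 with PRDX1, 620 and 567 with RANKL, and 1231 and 1182 with PRDX1 + RANKL. The PRDX1 libraries were highest and the RANKL libraries lowest, and the PRDX1 + RANKL libraries lay at the level of the controls, one of them within the control range. RANKL lowered Prdx1 2.12-fold, by a log2 change of -1.08 (SE 0.051, adjusted p = 5.08e-08). PRDX1 raised it by 0.50 without RANKL (1.41-fold, adjusted p = 7.04e-05) and by 1.02 with RANKL (2.03-fold, adjusted p = 2.60e-07). The difference between these effects was 0.53 (SE 0.072, adjusted p = 0.000575). With both agents Prdx1 differed from control by -0.06, with a 95% interval of -0.17 to 0.05 (adjusted p = 0.377). The values moved with the scaling. Under quantile normalization the effect of PRDX1 without RANKL was 0.32, that of RANKL with PRDX1 went from -0.56 to -0.36 and the interaction from 0.53 to 0.85, and all 3 still passed. The fall with RANKL in the presence of PRDX1 went past 1.5-fold with upper quartile scaling (-0.61) and without PRDX1 + RANKL replicate 1 (-0.59), and the interaction did so with quantile normalization and without no PRDX1 + RANKL replicate 1 (0.59). The level of the gene in the table thus went from rank 11 in both PRDX1 libraries to ranks 87 and 105 in the RANKL libraries.

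The start of Prdx1 is shown because this is the most abundant of the genes and because it holds the letters of several known response elements. The window runs from 250 bases before to 50 bases after the start (RefSeq, GRCm38.p6, chr4:116685349-116685648, + strand). Searched on both strands were the antioxidant response element (ARE, TGACNNNGC, the site bound by NRF2), AP-1 (TGANTCA), the carbohydrate response element (ChoRE, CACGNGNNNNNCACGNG) and NF-kB. Capitals mark each match.
Prdx1: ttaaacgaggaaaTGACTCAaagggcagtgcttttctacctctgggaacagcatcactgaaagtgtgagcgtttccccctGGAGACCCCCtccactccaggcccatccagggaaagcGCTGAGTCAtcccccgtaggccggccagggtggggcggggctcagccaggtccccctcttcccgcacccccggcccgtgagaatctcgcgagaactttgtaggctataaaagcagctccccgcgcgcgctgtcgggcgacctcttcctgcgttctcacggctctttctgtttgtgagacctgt
The first capitals are an AP-1 match, the second an NF-kB match, and the third an ARE match that overlaps an AP-1 match at 133 to 125 bases before the start. Of 32851 mouse promoters of the same length, 12.4% held the ARE letters, 7.81% the AP-1 letters, 8.46% the NF-kB letters and 0.0487% the ChoRE letters. Of the 9 of 10 genes with a promoter in the RefSeq table used, 3 held an ARE match, 2 an AP-1 match, 1 an NF-kB match and 1 a ChoRE match. These counts are per gene, whereas the shares are per promoter. Txnrd1 had 3 promoter windows, of which only 1 held the ARE letters. No sequence was at hand for Prdx6. A match is a description of letters, and no binding was measured here.

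Prdx2, the second cytosolic 2-cysteine peroxiredoxin and best known as an abundant protein of red cells, is listed as NM_001317385 at chr8:84969622-84974662 (+ strand). Its FPKM were 96.2 and 95.5 in control libraries, 87.7 and 89.3 with PRDX1, 178 and 177 with RANKL, and 117 and 116 with PRDX1 + RANKL. The groups did not overlap, and the RANKL libraries were far above the rest. RANKL raised Prdx2 1.84-fold (log2 0.88, SE 0.041, adjusted p = 4.50e-08), and under RANKL PRDX1 lowered it 1.52-fold (-0.60, adjusted p = 2.06e-06). The latter was under 1.5-fold with quantile normalization (-0.49) and with upper quartile scaling (-0.55). Without RANKL the effect of PRDX1 was -0.11, with a 95% interval of -0.20 to -0.02 (adjusted p = 0.0609). It passed with no filter and without either RANKL library (adjusted p = 0.0303 to 0.0401). The effects of PRDX1 with and without RANKL differed by -0.49 (adjusted p = 0.000248). A rise of 0.39 with RANKL was left in the presence of PRDX1 (adjusted p = 4.87e-05). Each of 8 erythroid markers was under 1 FPKM in all libraries, with Hbb-bt among those at 0, and their sum was 0.069 to 0.495 FPKM in RANKL libraries.

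Prdx3 is the peroxiredoxin of the mitochondrial matrix (NM_007452, chr19:60864066-60874538, - strand). Libraries gave 53.9 and 51.4 FPKM for controls, 51.4 and 48.5 with PRDX1, 81.8 and 75.9 with RANKL, and 55.0 and 55.0 with PRDX1 + RANKL. The RANKL libraries stood far above the rest, the PRDX1 + RANKL libraries lay just above the controls, and control and PRDX1 libraries overlapped. The rise with RANKL was 1.49-fold (log2 0.57, SE 0.055, adjusted p = 1.02e-05), past 1.5-fold without no PRDX1 + no RANKL replicate 1 (0.61) or no PRDX1 + RANKL replicate 2 (0.63), and with PRDX1 present it was 0.14 and did not pass (adjusted p = 0.0769). It passed, with adjusted p-values of 0.0379 to 0.0438, when either RANKL library was left out and when only the groups compared were fitted. PRDX1 lowered Prdx3 by 0.51 on the log2 scale under RANKL (adjusted p = 5.10e-05), while the effect without RANKL was -0.07 with an interval of -0.20 to 0.05. The difference between the effects was -0.44 (adjusted p = 0.00298).

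Prdx4, the peroxiredoxin of the endoplasmic reticulum, is listed as NM_001313711 (chrX:155323918-155338460, - strand). It had 136 and 127 FPKM in control libraries, 125 and 118 with PRDX1, 108 and 104 with RANKL, and 107 and 103 with PRDX1 + RANKL. Both groups with RANKL lay below both groups without it, and the RANKL and PRDX1 + RANKL libraries overlapped. RANKL lowered Prdx4 by 0.31 (adjusted p = 0.000541) without PRDX1 and by 0.21 (adjusted p = 0.00929) with it. The latter did not pass without PRDX1 + no RANKL replicate 1 (-0.18, adjusted p = 0.0802) or without PRDX1 + RANKL replicate 2 (-0.18, adjusted p = 0.0804). The effect of PRDX1 was -0.11 without RANKL (95% interval -0.23 to 0.00) and -0.02 with RANKL (-0.13 to 0.10), and neither passed. With a replicate block the first did (adjusted p = 0.0451).

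Prdx5, an atypical peroxiredoxin found in mitochondria, peroxisomes and cytosol (NM_012021, chr19:6906697-6910106, - strand), was the second of the family to rise with PRDX1 in both settings. Its levels were 134 and 133 FPKM in control libraries, 180 and 184 with PRDX1, 81.2 and 87.4 with RANKL, and 136 and 135 with PRDX1 + RANKL. As for Prdx1, PRDX1 libraries were highest and RANKL libraries lowest, and the remaining groups lay close to each other without overlap. RANKL lowered Prdx5 1.58-fold (log2 -0.66, SE 0.047, adjusted p = 1.09e-06). The rise with PRDX1 was 0.45 in the absence of RANKL (adjusted p = 8.53e-05) and 0.68 in its presence (adjusted p = 2.28e-06). With both agents against neither the difference was 0.02, with an interval of -0.08 to 0.13. The interaction of 0.24 (adjusted p = 0.0290) did not pass without any one of the control, PRDX1 and PRDX1 + RANKL libraries (0.22 to 0.25, adjusted p = 0.0622 to 0.107).

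Prdx6, the 1-cysteine member that also has phospholipase activity and uses glutathione in place of thioredoxin (NM_007453, chr1:161240112-161251210, - strand), followed neither pattern. The libraries held 34.0 and 33.2 FPKM in controls, 41.2 and 36.3 with PRDX1, 41.2 and 42.0 with RANKL, and 47.4 and 47.5 with PRDX1 + RANKL. The libraries with both agents were highest and the controls lowest, and the groups with a single agent overlapped. RANKL raised Prdx6 by 0.30 without PRDX1 (adjusted p = 0.00194) and by 0.29 with it (adjusted p = 0.00466). Both agents together raised it by 0.49 (40.1%, adjusted p = 0.000138). PRDX1 raised it by 0.20 where RANKL was absent (adjusted p = 0.0362) and by 0.19 where it was present (adjusted p = 0.0352). The first was lost with no filter, with no intensity trend, with only the groups compared (adjusted p = 0.0661 to 0.0716) and without either control library, either PRDX1 + RANKL library or PRDX1 + no RANKL replicate 1 (0.11 to 0.22, adjusted p = 0.0615 to 0.279), and the second with no filter (adjusted p = 0.0630), with no trend (adjusted p = 0.0669) and without any of the 4 libraries compared (0.17 to 0.20, adjusted p = 0.0613 to 0.135). Its interaction was -0.01, with an interval of -0.21 to 0.18.

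The makeup of the peroxiredoxin messenger pool changed accordingly. Prdx1 took 73.8% ± 0.389 of the summed FPKM of the 6 genes in control libraries (SD, n = 2), 78.7% ± 0.120 with PRDX1, 54.9% ± 1.42 with RANKL and 72.4% ± 0.366 with PRDX1 + RANKL. The share of Prdx2 was 5.63% in control, 3.93% in PRDX1 and 16.4% in RANKL libraries, and that of Prdx3 3.09%, 2.22% and 7.29%. The mean share of Prdx5 was 7.80% to 8.14% in the 4 groups, and the RANKL libraries, at 7.31% and 8.30%, spanned these means. The ratio of Prdx1 to Prdx2 was 13.1 ± 0.471 in control, 20.1 ± 0.338 in PRDX1, 3.35 ± 0.203 in RANKL and 10.4 ± 0.212 in PRDX1 + RANKL libraries, with no overlap between groups.

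**Figure D3:**
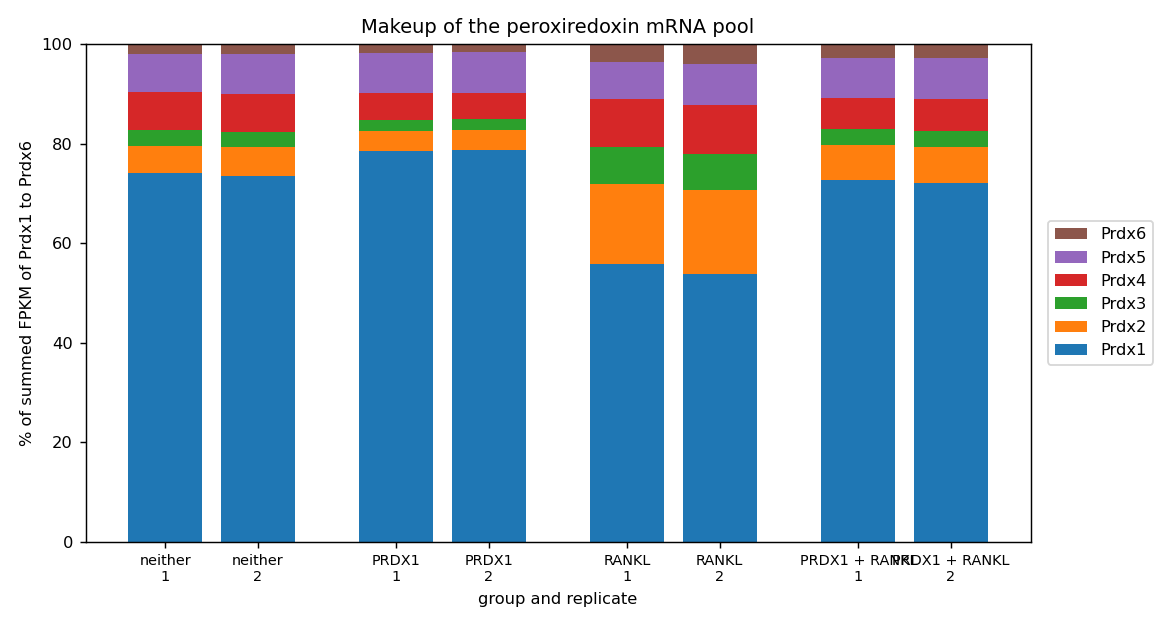
Share (y axis, % of the summed FPKM of Prdx1 to Prdx6) of each peroxiredoxin in each of the 8 libraries (x axis, group and replicate). Prdx1 fills 54.9% of the pool in RANKL libraries and 72.4% to 78.7% in the other groups, and the difference is taken mostly by Prdx2 and Prdx3.

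Srxn1, whose protein reduces overoxidized peroxiredoxins in an ATP-dependent step, is listed as NM_029688 (chr2:152105524-152111376, + strand). It had 72.2 and 71.8 FPKM in control libraries, 85.3 and 86.7 with PRDX1, 51.9 and 52.9 with RANKL, and 73.8 and 71.7 with PRDX1 + RANKL. The order of the groups was that of Prdx5, and the PRDX1 + RANKL libraries spanned the controls. RANKL lowered Srxn1 by 0.45 (1.37-fold, SE 0.044, adjusted p = 1.15e-05). PRDX1 raised it by 0.25 in the absence of RANKL (adjusted p = 0.00207) and by 0.47 in its presence (adjusted p = 2.14e-05). With both agents against neither the difference was 0.01, with an interval of -0.08 to 0.11. Its interaction was 0.21 (adjusted p = 0.0348) and did not pass without any one of the same 6 libraries as for Prdx5 (0.19 to 0.23, adjusted p = 0.0776 to 0.142). The ratio of Prdx1 to Srxn1 was 17.5 in control, 20.7 in PRDX1, 11.3 in RANKL and 16.6 in PRDX1 + RANKL libraries.

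The promoters of Srxn1 (chr2:152105274-152105573, + strand) and Prdx5 (chr19:6910057-6910356, - strand) are shown because these genes moved with Prdx1 in all 4 comparisons of a single agent (RefSeq, GRCm38.p6). Both are written from 250 bases before to 50 bases after the start, with capitals for the same 4 motifs.
Srxn1: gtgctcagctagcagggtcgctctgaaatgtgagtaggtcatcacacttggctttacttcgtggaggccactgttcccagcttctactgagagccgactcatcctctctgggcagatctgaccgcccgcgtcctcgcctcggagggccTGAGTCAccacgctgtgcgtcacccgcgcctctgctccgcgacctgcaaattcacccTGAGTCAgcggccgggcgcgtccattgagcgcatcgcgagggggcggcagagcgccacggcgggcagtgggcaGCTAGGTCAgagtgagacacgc
Prdx5: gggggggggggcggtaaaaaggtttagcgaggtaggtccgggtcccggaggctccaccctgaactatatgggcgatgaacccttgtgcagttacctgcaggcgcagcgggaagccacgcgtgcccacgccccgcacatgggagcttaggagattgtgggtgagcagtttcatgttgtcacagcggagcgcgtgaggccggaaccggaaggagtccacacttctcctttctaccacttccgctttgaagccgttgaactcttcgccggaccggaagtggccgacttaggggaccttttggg
Srxn1 held AP-1 matches at 102 to 96 and at 45 to 39 bases before the start and an ARE match in the bases after it, and Prdx5 held none of the letters searched in this window. No motif searched was found in the windows of all 3 genes.

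Txn1, the cytosolic thioredoxin that reduces the peroxiredoxins (NM_011660, chr4:57943373-57956411, - strand), ran opposite to Prdx1. Libraries gave 337 and 333 FPKM in controls, 307 and 302 with PRDX1, 511 and 476 with RANKL, and 385 and 377 with PRDX1 + RANKL. No groups overlapped, with RANKL libraries highest and PRDX1 libraries lowest. RANKL raised Txn1 1.47-fold (log2 0.56, SE 0.044, adjusted p = 2.29e-06; 0.61 and past 1.5-fold without no PRDX1 + RANKL replicate 2) and by 0.32 in the presence of PRDX1 (adjusted p = 0.000299). Under RANKL, PRDX1 lowered it by 0.37 (adjusted p = 9.34e-05), or by 0.23 with quantile normalization. Without RANKL the effect of PRDX1 was -0.14 (adjusted p = 0.0395), a call lost in 10 of 16 alternatives. It was -0.04 under quantile normalization, and -0.15 to -0.13 without any one of the control, PRDX1 and PRDX1 + RANKL libraries (adjusted p = 0.0668 to 0.173). With both agents Txn1 was 0.18 above control (adjusted p = 0.00679), or 0.28 above it with quantile normalization. The difference did not pass without PRDX1 + RANKL replicate 1 (0.17). The interaction of -0.23 (adjusted p = 0.0220) did not pass without no PRDX1 + no RANKL replicate 2 or any one of the PRDX1 and PRDX1 + RANKL libraries (-0.25 to -0.22, adjusted p = 0.0576 to 0.0909).

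The promoters of Txn1 (chr4:57956362-57956661, - strand) and Prdx3 (chr19:60874489-60874788, - strand) are set beside those above because these 2 genes, one cytosolic and one mitochondrial, had the most similar profiles of any pair among the 10 (RefSeq, GRCm38.p6, the same window and motifs).
Txn1: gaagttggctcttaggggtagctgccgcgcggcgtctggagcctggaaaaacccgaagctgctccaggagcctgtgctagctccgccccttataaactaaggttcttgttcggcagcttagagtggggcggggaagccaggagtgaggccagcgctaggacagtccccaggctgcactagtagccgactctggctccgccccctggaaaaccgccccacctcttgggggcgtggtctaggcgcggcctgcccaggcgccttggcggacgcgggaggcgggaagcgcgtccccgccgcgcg
Prdx3: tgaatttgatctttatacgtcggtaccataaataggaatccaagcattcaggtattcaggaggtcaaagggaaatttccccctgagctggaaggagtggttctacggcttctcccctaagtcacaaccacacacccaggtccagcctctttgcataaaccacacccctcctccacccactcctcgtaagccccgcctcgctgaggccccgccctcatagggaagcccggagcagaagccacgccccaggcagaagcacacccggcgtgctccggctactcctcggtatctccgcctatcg
Neither window held a match to the 4 motifs, so there are no capitals.

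Txnrd1, the cytosolic selenoenzyme that recharges thioredoxin (NM_015762, chr10:82859206-82897724, + strand), was the steadiest of the 10. It had 126 and 134 FPKM in control libraries, 139 and 142 with PRDX1, 125 and 131 with RANKL, and 129 and 134 with PRDX1 + RANKL. Control, RANKL and PRDX1 + RANKL libraries overlapped, and only the PRDX1 libraries lay above the rest. The highest library was 1.14 times the lowest, against 3.14 times for Prdx1. The effects of PRDX1 were 0.11 without RANKL (95% interval 0.00 to 0.22) and 0.04 with RANKL (-0.07 to 0.15), and those of RANKL -0.02 (-0.13 to 0.09) and -0.09 (-0.20 to 0.01). None passed, and changes as large as those of Txn1 with RANKL lie outside these intervals. Without RANKL the effect of PRDX1 passed under quantile normalization (0.16, adjusted p = 0.0334) and upper quartile scaling (0.15, adjusted p = 0.0375). With RANKL it passed under quantile normalization (0.14, adjusted p = 0.0479), and the effect of RANKL with PRDX1 passed under upper quartile scaling (-0.15, adjusted p = 0.0308). The promoter of the transcript counted held an ARE match at 92 to 84 bases before the start. The ratio of Txn1 to Txnrd1 went from 2.58 ± 0.131 in control to 3.86 ± 0.316 in RANKL libraries, and stood at 2.17 ± 0.0592 in PRDX1 and 2.89 ± 0.113 in PRDX1 + RANKL libraries.

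Txnip, the inhibitor of thioredoxin and a gene that responds to glucose (NM_023719, chr3:96557957-96561857, + strand), was the only one of the 10 with PRDX1 effects of opposite sign that both passed the test. It had 155 and 145 FPKM in control libraries, 121 and 113 with PRDX1, 88.3 and 88.2 with RANKL, and 111 and 110 with PRDX1 + RANKL. The controls were highest and the RANKL libraries lowest, and the PRDX1 + RANKL libraries lay between them, just below the PRDX1 libraries. PRDX1 lowered Txnip by 0.36 without RANKL (SE 0.051, adjusted p = 0.000551) and raised it by 0.32 with RANKL (adjusted p = 0.000687). The difference of 0.68 between these effects passed (SE 0.072, adjusted p = 0.000119) and remained past the test and 1.5-fold in all 15 alternatives. RANKL lowered Txnip 1.70-fold without PRDX1 (-0.76, adjusted p = 6.57e-07), while with PRDX1 its effect was -0.08 (95% interval -0.20 to 0.03). The ratio of Txn1 to Txnip was 2.23 ± 0.0883 in control, 2.61 ± 0.0994 in PRDX1, 5.59 ± 0.275 in RANKL and 3.46 ± 0.0322 in PRDX1 + RANKL libraries, so RANKL moved the carrier and its inhibitor apart and PRDX1 under RANKL brought them closer.

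The promoter of Txnip (RefSeq, GRCm38.p6, chr3:96557707-96558006, + strand) is shown because Txnip was the 1 of the 9 genes with a promoter that held letters of a ChoRE. Of 32851 promoters, 16 held this element.
Txnip: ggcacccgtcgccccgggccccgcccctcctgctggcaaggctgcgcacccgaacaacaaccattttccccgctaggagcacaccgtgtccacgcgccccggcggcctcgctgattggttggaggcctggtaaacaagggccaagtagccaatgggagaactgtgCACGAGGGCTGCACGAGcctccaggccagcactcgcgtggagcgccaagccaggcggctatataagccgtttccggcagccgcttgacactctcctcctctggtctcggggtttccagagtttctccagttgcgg
The capitals mark this match, 85 to 69 bases before the start. Of the 10 genes listed as relatives of Txnip and glucose sensors, 8 were tested. With RANKL 4 of them rose, beside 37.0% of all genes, and 1 fell, beside 22.9%, and with PRDX1 under RANKL 3 rose and 1 fell, beside 16.9% and 25.6%. PRDX1 alone raised 2, beside 12.2%. Arrdc4, an arrestin relative known to respond to the same glucose sensors, had mean levels of 1.23, 3.90, 6.03 and 8.25 FPKM in control, PRDX1, RANKL and PRDX1 + RANKL libraries. It rose where Txnip fell, by 1.15 with PRDX1 (adjusted p = 6.19e-05) and by 1.67 with RANKL (adjusted p = 8.62e-07), and rose by 0.40 with PRDX1 under RANKL (adjusted p = 0.0194). Slc2a3, a glucose transporter and the one member that fell with RANKL, fell by 0.66 with RANKL and rose by 0.55 with PRDX1 under RANKL (adjusted p = 0.000484).

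Profiles were compared by the root mean square difference of centred log2(FPKM + 1) over the 8 libraries, as a description. Among the 10 genes the nearest pair was Prdx3 and Txn1, 0.072 apart. The profile of Srxn1 was nearly the mirror image of both, at 0.073 from the mirror of Prdx3 and 0.075 from that of Txn1. Prdx5 lay 0.143 from Srxn1 and 0.197 from Prdx1. Among all genes tested, the 3 nearest to Prdx1 were Ctsc, a lysosomal protease (0.084), Metrnl (0.087) and Tnfsf12 (0.089), each at a small part of the spread of Prdx1 itself, 0.576. Nearest to Prdx3 were Cfdp1 and then Atp5c1 and Cox7a2, subunits of ATP synthase and of cytochrome oxidase (0.037 and 0.038). Nearest to Txn1 were Acadvl, an enzyme of mitochondrial fatty acid oxidation (0.020), and the chaperonin subunits Cct8 (0.024) and Tcp1 (0.026). The nearest to Prdx2 was Ppp1r14b (0.034), to Prdx4 Cdc42 (0.028), to Prdx5 Adamtsl5 (0.033), to Prdx6 Fnbp4 (0.038), to Srxn1 Rap2b (0.026) and to Txnrd1 Trpc4ap (0.022). The spread of Txnrd1 itself was only 0.060, so a small distance to it mainly reflects a flat profile. For Prdx4 and Prdx6 the spread was 0.141 and 0.182.

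Counting ignored strand, so a gene and a partner on the other strand can share reads. The nearest profile to Txnip was that of Gm15441 (0.052), which lies on the opposite strand and shares 606 exonic bases with it in GENCODE M21, 19.4% of the exonic bases of Txnip. Gm15441 had mean levels of 47.4, 37.8, 29.3 and 36.6 FPKM in control, PRDX1, RANKL and PRDX1 + RANKL libraries, and the reads of the 2 cannot be told apart there. Trmt112 shares 409 exonic bases, 19.1%, with Prdx5 but rose with RANKL by 0.60 where Prdx5 fell. AV051173 overlaps Prdx1 in the deposited coordinates and fell with it, from 33.0 FPKM in control to 12.0 in RANKL libraries, levels far below those of Prdx1. Junb and Rnaseh2a share 5.67% and 5.80% of the exonic bases of Prdx2 in GENCODE M21. In the deposited coordinates, with 1 transcript per gene, they lie 2247 and 3546 bases away from Prdx2 and do not overlap it. Junb rose 2.69 on the log2 scale with RANKL and 1.20 with PRDX1 alone. Of windows of 100 bases, 0.866% in Prdx1 and 4.03% in Prdx2 occur in another annotated gene, and none in the other 8 genes. Prdx6b, a relative of Prdx6, was listed at 0 in all libraries.

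Other genes of the pathway were taken from lists, described by counts and medians. Of all genes tested, 37.0% rose and 22.9% fell with RANKL, and 16.9% rose and 25.6% fell with PRDX1 under RANKL. Of 18 other thioredoxins, glutaredoxins and reductases, 6 rose and 6 fell with RANKL, and 1 rose and 7 fell with PRDX1 under RANKL, with a median log2 fold change of -0.16 there, against -0.06 for all genes. The share that rose with RANKL was close to that of all genes. The mitochondrial pair Txn2 and Txnrd2, which serves Prdx3 and was picked after its values were seen, rose with RANKL by 0.23 (adjusted p = 0.00374) and 0.30 (adjusted p = 0.00465), and fell with PRDX1 under RANKL by 0.34 (adjusted p = 0.000626) and 0.37 (adjusted p = 0.00240). With PRDX1 alone Txn2 fell by 0.17 (adjusted p = 0.0399), where Txnrd2 (-0.16, adjusted p = 0.140) and Prdx3 did not pass. Glrx5, a mitochondrial glutaredoxin for iron-sulfur clusters, rose by 0.74 with RANKL and fell by 0.64 with PRDX1 under RANKL. The cytosolic Glrx was the one member to rise with PRDX1, by 0.95 without RANKL (adjusted p = 7.26e-07) and by 0.90 with it (adjusted p = 5.19e-07). Txndc16 and Nxn fell by 1.19 and 0.69 with RANKL.

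Of 19 tested genes listed as NRF2 and its antioxidant targets, of which Srxn1, Txnrd1, Txn1 and Prdx1 are also known targets kept apart from the list, 14 fell, beside 22.9% of all genes, and 3 rose, beside 37.0%, with RANKL (median -0.69, against 0.10 for all genes). With PRDX1 under RANKL 13 rose, beside 16.9%, and 2 fell, beside 25.6% (median 0.44, against -0.06 for all genes). Without RANKL 7 rose, beside 12.2%, and 1 fell, beside 17.6% (median 0.09, against -0.04). Mgst1, a membrane glutathione transferase, fell by 2.46 with RANKL (adjusted p = 6.49e-10) and rose by 1.91 with PRDX1 under RANKL (adjusted p = 1.61e-08). Hmox1, the heme oxygenase, fell by 2.04 and rose by 1.63 in the same comparisons, and Gclm, a subunit of the enzyme that starts glutathione synthesis, went from 89.3 FPKM in control to 31.1 in RANKL libraries and rose by 1.05 with PRDX1 under RANKL. Slc7a11, the cystine transporter, rose in each of them, by 0.44 with RANKL (adjusted p = 0.00395) and by 1.75 with PRDX1 under RANKL (adjusted p = 8.35e-07). The medians kept their signs under quantile normalization, upper quartile scaling and voom on recovered reads, scalings added for the lists after the data were seen. Without RANKL the median was 0.04 under quantile normalization, and 8 rose and 5 fell under voom.

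**Figure D4:**
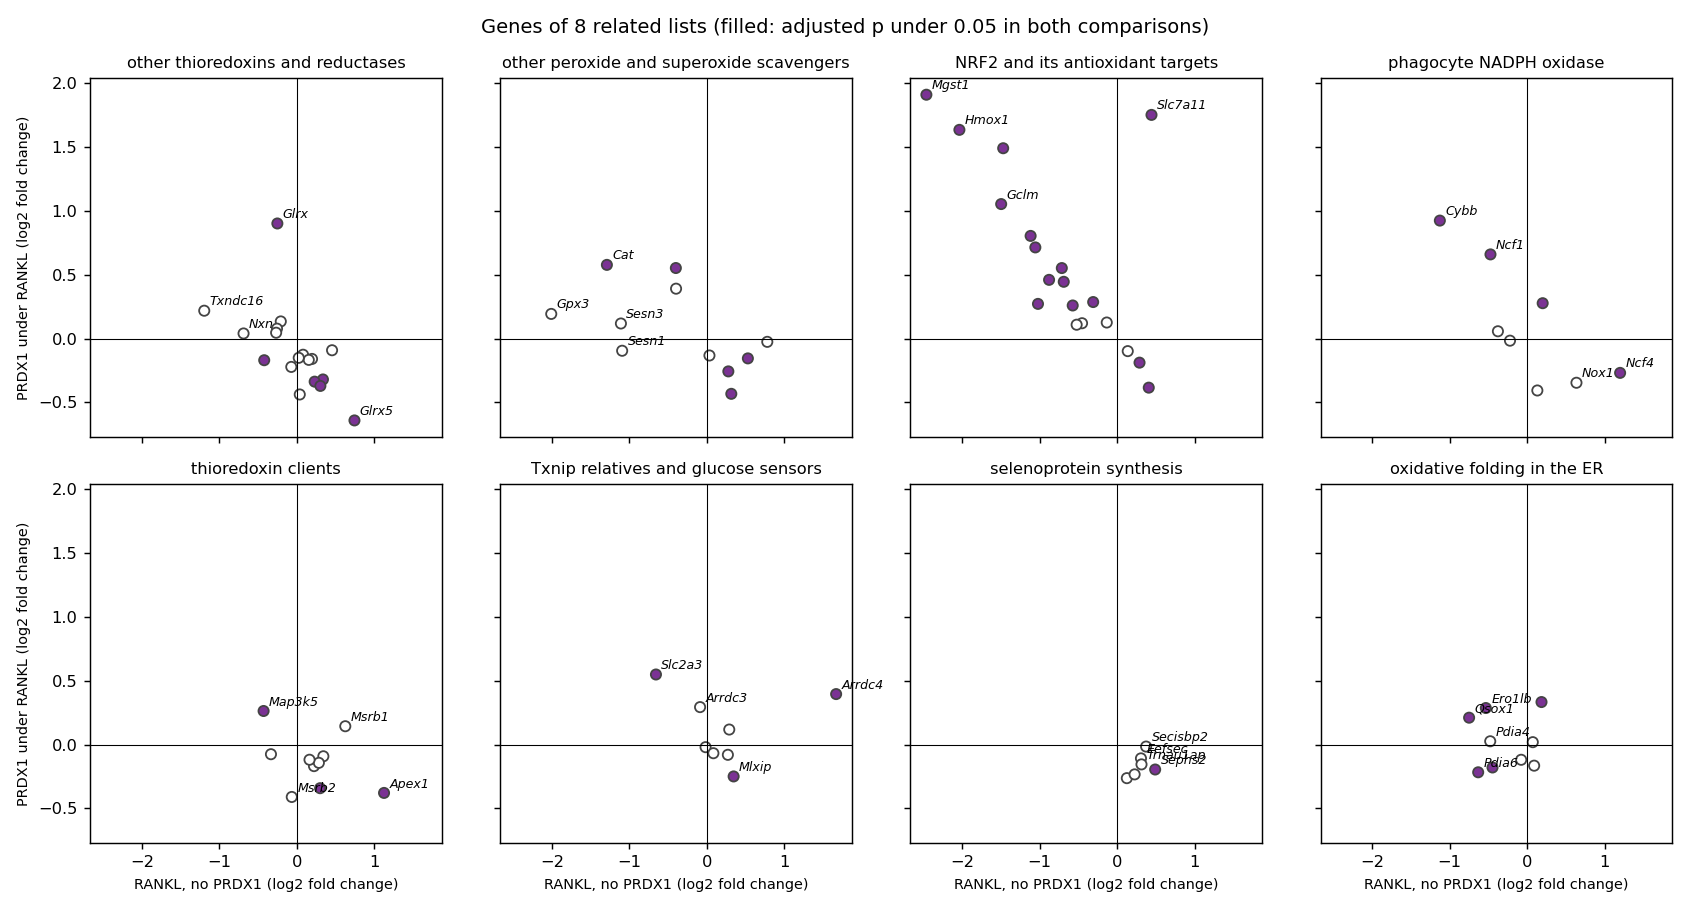
Each panel is 1 of 8 gene lists, and each point a gene, at its log2 fold change with RANKL alone (x axis) and with PRDX1 under RANKL (y axis). Filled points passed the test in both: 13 of 19 tested NRF2 genes lie above 0 on the y axis past the test, and 14 lie left of 0 on the x axis past it. Both axes share the RANKL libraries.

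Among 11 tested genes listed as other peroxide and superoxide scavengers, 4 rose with RANKL, close to the 37.0% of all genes, and 5 fell, beside 22.9%. The list took in the sestrins Sesn1, Sesn2 and Sesn3, so its counts are not of scavenging enzymes alone. Gpx3, a secreted glutathione peroxidase, fell by 2.01 (adjusted p = 3.68e-06) and catalase, Cat, by 1.29 (adjusted p = 4.66e-09), and Sesn3 and Sesn1 fell by 1.11 and 1.09. With PRDX1 under RANKL 2 of 11 rose, Cat by 0.58 (adjusted p = 4.26e-06) and Sesn2 by 0.55, and 3 fell, close to the 16.9% and 25.6% of all genes. Of 8 tested subunits of the phagocyte NADPH oxidase, 3 rose and 4 fell with RANKL, the former again close to the share of all genes. Cybb, the catalytic subunit, fell by 1.13 and rose by 0.92 with PRDX1 under RANKL (adjusted p = 5.69e-07), as did Ncf1, by 0.47 and 0.66, whereas Ncf4 rose by 1.20 with RANKL and fell by 0.27 with PRDX1 under RANKL. Nox1 rose by 0.63 with RANKL.

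Of 10 tested thioredoxin clients, 6 rose, beside 37.0% of all genes, and 2 fell, beside 22.9%, with RANKL. With PRDX1 under RANKL 1 rose and 3 fell, near the 16.9% and 25.6% of all genes. Apex1, the DNA repair and redox factor, rose by 1.13 with RANKL (adjusted p = 2.01e-08) and fell by 0.38 with PRDX1 under RANKL. Map3k5, the kinase ASK1 that thioredoxin holds in check, fell by 0.43 with RANKL and rose by 0.26 with PRDX1 under RANKL. Msrb1 rose by 0.63 with either agent alone. Of 6 genes for selenoprotein synthesis, on which Txnrd1 depends, 5 rose with RANKL, beside 37.0% of all genes, Sephs2 by 0.49 (adjusted p = 1.42e-05). Of 9 genes for oxidative folding in the endoplasmic reticulum, where Prdx4 resides, 1 rose, beside 37.0% of all genes, and 5 fell, beside 22.9%, with RANKL (median -0.45). Pdia6 fell by 0.63 and Qsox1 by 0.75.

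Markers of the cells moved with these results. The 8 macrophage markers summed to 15720 to 17480 FPKM in control, 16550 to 17010 in PRDX1, 9857 to 10280 in RANKL and 13420 to 13820 in PRDX1 + RANKL libraries. The 10 osteoclast markers summed to 44.8 to 45.5, 88.1 to 92.4, 1884 to 1987 and 250.9 to 258.5 FPKM in the same order. The 7 neutrophil markers summed to 7.55 to 11.6, 38.3 to 42.0, 15.6 to 15.9 and 33.5 to 36.4 FPKM, mostly S100a8 and S100a9, and the 7 stromal markers to 8.15 to 10.9, 17.3 to 17.5, 7.92 to 9.97 and 16.2 to 19.99 FPKM. Both sums were higher in each group with PRDX1 than in each group without it. Erythroid, B cell, T cell and mast cell markers were each under 1 FPKM in all libraries, with Hbb-bt, Cd3e, Cpa3, Tpsb2 and Ms4a2 among those at 0, and the sums for dendritic and endothelial markers reached 3.99 and 5.71 FPKM, both in PRDX1 + RANKL libraries. The part of any of these cells in the values of the 10 genes was not tested.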

How the data were processed

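Per the file header, HOMER was run by the authors on mm10 to count exonic reads of RefSeq genes from both strands, with 1 transcript kept per gene, and the result was deposited as FPKM. The submitters' processing notes also name HISAT2 and DESeq2, without a role. Versions were not given in the sources used here. FPKM times transcript length came out as whole reads, within 0.25 of a read, for 99.99% or more of the 10536 to 11779 genes checked per library, which gave read numbers and library totals. The table held 0 columns of per-sample values that were not used.

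The 11700 genes with a mean of at least 0.5 FPKM were fitted on the log2(FPKM + 1) scale by limma 3.58.1 (R 4.3.3), all 8 libraries in 1 model, with a trend of the variance on intensity and 4 residual degrees of freedom. Genes with a Benjamini-Hochberg adjusted p under 0.05 passed the test, with 1.5-fold as a further threshold. In data simulated for 11685 genes with 200 changed, all changed 2-fold or more passed in the comparison of PRDX1 without RANKL.

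Members and lists were chosen with earlier results of these data known, so their counts are descriptions. Genes named from a list were up to 4 with the largest change past the test in any single-agent comparison, plus those a count needed, and for each of the 10 genes those with the nearest profile and the neighbours within 10 kb. Txn2, Txnrd2, Sesn2, Acp5, Atp6v0d2, Itgb3 and Nfatc1 were named after their values were seen. The 16 alternatives were a pseudocount of 0.1, no filter, quantile normalization, upper quartile scaling, voom on recovered reads, no trend, a replicate block, leaving out each library, and fitting only the groups compared. Promoter sequences are from RefSeq (GRCm38.p6), and exons from GENCODE M21 (GRCm38).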

Additional observations from a re-analysis of the deposited data

Results flagged for a closer look

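For 7 of the 10 genes the effect of PRDX1 with RANKL differed from its effect without RANKL, by the interaction term of limma with adjustment over all genes. Of all genes tested, 23.1% passed the same test. On the log2 scale the effect with RANKL minus that without was 0.53 for Prdx1, -0.49 for Prdx2, -0.44 for Prdx3, 0.24 for Prdx5, -0.23 for Txn1, 0.68 for Txnip and 0.21 for Srxn1. For Prdx1, Prdx5 and Srxn1 the rise with PRDX1 was larger with RANKL, for Txn1 the fall was larger, and for Prdx2 and Prdx3 a fall passed the test with RANKL only. For Txnip the effects had opposite signs, in both libraries of each group. Prdx1, Prdx2, Prdx3 and Txnip passed in all 15 alternatives, and Prdx5, Txn1 and Srxn1 in 8, 7 and 8 of them. All of these differences use the same 8 libraries, in which macrophage and osteoclast markers also moved, and their part was not tested.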

How the results depend on the processing

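Every call of the 10 genes kept its direction in each alternative. Calls of the interaction and of PRDX1 without RANKL varied with the alternative. In the main fit 23.1% of all genes passed for the interaction, and 12.2% rose and 17.6% fell with PRDX1 without RANKL. Shares of all genes under the alternatives are not given here, so the counts below describe only the 10 genes. For the interaction 7 of the 10 genes passed, 4 without an intensity trend, and 4 to 7 when single libraries were left out. For PRDX1 without RANKL 6 passed, 4 without an intensity trend and 4 to 7 when single libraries were left out, and the call of Txn1 was lost in 10 of 16 alternatives. Among the 10 genes, signs turned only where the main value did not pass: Prdx4 with PRDX1 under RANKL went from -0.02 to 0.0651 with quantile normalization and 0.03165 with upper quartile scaling (-0.0490 to 0.0138 with single libraries left out). Txnrd1 with RANKL ranged from -0.0640 to 0.0235 and, with both agents against neither, from -0.0241 to 0.0634 with single libraries left out. Srxn1 with both agents against neither was -0.002663 with upper quartile scaling and -0.00631 to 0.0354 with single libraries left out, and the interaction of Prdx6 was 0.00640 with quantile normalization and -0.102 to 0.0762 with single libraries left out. The cause was not tested. Over all genes called, quantile normalization and upper quartile scaling moved the share of higher calls with RANKL from 54.3% to 45.2% and 47.0%, and with RANKL in the presence of PRDX1 from 53.2% to 44.8% and 46.2%. The differences between replicates 1 and 2 correlated weakly between groups over all genes tested (correlations 0.00847 to 0.0965, all positive). Prdx1, Prdx4, Txn1 and Txnip were higher in replicate 1 of every group and Txnrd1 in replicate 2. The rest of the 10 kept no such order. These values do not settle whether replicate numbers pair the libraries. With a replicate block 9 of 10 genes passed for PRDX1 without RANKL, where 6 passed without the block (gained were Prdx2, Prdx4 and Txnrd1, adjusted p = 0.0476, 0.0451 and 0.0482), and 8, 9, 8, 5 and 7 for PRDX1 with RANKL, RANKL without PRDX1, RANKL with PRDX1, both against neither and the interaction, with Prdx3 gained for RANKL with PRDX1 (adjusted p = 0.0375). With 2 libraries a group, the spread between libraries had 4 residual degrees of freedom, to which limma adds information from the other genes. The 10 genes had at least 2293 reads in each library.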
